A study of Mus musculus with 36 samples.

Results

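The regions described here are the parts of the mouse genome that were called middle (M) in each of 3 replication timing (RT) maps. The maps were made in shLacZ CH12 cells, in WT primary activated splenic B cells and in mouse embryonic fibroblasts (MEFs). Each map gives 20 kb bins 1 of 3 states, early (E), M or late (L). Autosomal bins that were M in all 3 maps were taken, bins made up wholly of unknown bases were dropped, and adjacent bins were joined into runs. This left 12499 of 119839 bins, or 10.4%, a total of 249.9 Mb in 1005 runs on all 19 autosomes. The bins were chosen by the state calls themselves, so all values below that derive from states describe the choice and carry no test.

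The series holds 36 libraries in 7 groups, of which 8 libraries stand behind the B cell maps. CH12 is a mouse B cell lymphoma line, used by the study as clone F3. It carried an intact *Rif1* gene, had been infected with a lentivirus expressing a short hairpin RNA against LacZ as a control, had been selected with puromycin, and according to the labels was stimulated with IL4, CD40 and TGF beta. The primary B cells came from *Rif1*+/+ mice on a C57BL/6 background. Their labels carry the same culture text as those of CH12 cells, and they give no age or sex. Cells of both groups took up BrdU, cells from early and from late S phase were sorted apart, and 2 replicates of each fraction were sequenced, giving 4 libraries per group. The map named for WT MEFs is tied to no sample of the series and, per the study's list of data sets, came from an earlier public Repli-seq experiment.

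Replication of a mammalian chromosome is spread over S phase. Large domains rich in active genes are copied early, gene-poor domains later, and the zones between them are crossed at intermediate times by forks that leave the early domain. A region can be M because it lies in such a transition, because its own origins fire in mid S phase, or because cells or alleles differ and the average falls in between. A state call does not separate these cases. RIF1 and the MCM2-7 helicase, the factors that the study perturbed, both act on this program. MCM complexes are loaded at origins in G1 to license them, and the kinase CDC7 with its activator DBF4 and the GINS complex convert them into active forks.

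Several of these replication factors were encoded in the M regions. The 6 promoters shown, of such factors and of *Prkdc* and *Olfr19*, varied widely in sequence. Each is the stretch of 250 bases before the annotated gene start in the mm9 assembly, read 5′ to 3′ on the gene's strand, with CpG dinucleotides in capitals. *Mcm4*, an MCM2-7 subunit, and *Prkdc*, the catalytic subunit of the DNA-dependent protein kinase that joins broken DNA ends, start 466 bases apart on opposite strands, so that their windows at chr16:15637494-15637743 (minus strand) and chr16:15637709-15637958 (plus strand) overlap. They are shown because this pair sits in the second longest run. Their GC contents were 62.4% and 57.6%, with 23 and 16 CpGs.
Mcm4: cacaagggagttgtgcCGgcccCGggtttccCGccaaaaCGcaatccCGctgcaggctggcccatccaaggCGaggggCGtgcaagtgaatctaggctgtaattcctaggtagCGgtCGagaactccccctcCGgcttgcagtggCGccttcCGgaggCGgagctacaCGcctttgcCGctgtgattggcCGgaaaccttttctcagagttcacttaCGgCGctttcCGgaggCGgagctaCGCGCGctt
Prkdc: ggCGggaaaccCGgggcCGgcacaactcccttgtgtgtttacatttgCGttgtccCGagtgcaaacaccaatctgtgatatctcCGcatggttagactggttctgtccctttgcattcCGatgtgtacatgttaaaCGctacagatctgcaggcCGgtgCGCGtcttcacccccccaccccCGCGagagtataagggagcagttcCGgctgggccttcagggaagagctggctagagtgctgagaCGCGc
In the same run lay *Olfr19*, an olfactory receptor gene whose window at chr16:16674111-16674360 (minus strand) had 30.4% GC and 0 CpGs.
Olfr19: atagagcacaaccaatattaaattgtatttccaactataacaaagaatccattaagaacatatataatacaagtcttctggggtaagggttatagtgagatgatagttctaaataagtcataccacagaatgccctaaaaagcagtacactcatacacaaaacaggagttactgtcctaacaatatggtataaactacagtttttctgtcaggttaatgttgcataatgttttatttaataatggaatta
The remaining 3 belong to genes that license or fire origins in 3 other runs. The window of *Dbf4*, the CDC7 activator, at chr5:8422717-8422966 (minus strand) had 77.6% GC and 38 CpGs. The window of *Mcm3*, another MCM2-7 subunit, at chr1:20810360-20810609 (minus strand) had 51.6% GC and 7 CpGs. The window of *Gins1*, a GINS subunit, at chr2:150730886-150731135 (plus strand) had 37.6% GC and 4 CpGs.
Dbf4: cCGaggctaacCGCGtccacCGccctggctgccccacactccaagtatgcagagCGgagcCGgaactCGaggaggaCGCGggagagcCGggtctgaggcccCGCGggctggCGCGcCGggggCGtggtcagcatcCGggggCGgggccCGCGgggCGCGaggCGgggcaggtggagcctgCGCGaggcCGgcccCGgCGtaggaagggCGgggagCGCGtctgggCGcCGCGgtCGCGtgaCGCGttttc
Mcm3: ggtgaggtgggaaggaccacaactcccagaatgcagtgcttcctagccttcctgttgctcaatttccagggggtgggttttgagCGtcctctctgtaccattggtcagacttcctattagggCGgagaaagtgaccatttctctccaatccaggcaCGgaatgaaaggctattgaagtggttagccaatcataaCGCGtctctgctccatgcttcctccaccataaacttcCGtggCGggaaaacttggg
Gins1: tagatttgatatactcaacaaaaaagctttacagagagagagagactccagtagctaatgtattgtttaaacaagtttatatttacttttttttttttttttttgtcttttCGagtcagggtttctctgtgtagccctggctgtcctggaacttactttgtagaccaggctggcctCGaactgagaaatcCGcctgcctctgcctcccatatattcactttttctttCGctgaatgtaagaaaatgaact

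Among all 2221 promoters of protein-coding genes that start in M regions and could be read, 31.7% (Wilson 95% interval 29.8 to 33.7) were CpG rich, defined as a GC content of at least 50% and a ratio of observed to expected CpG of at least 0.6. Of the 6 promoters shown, those of *Mcm4*, *Prkdc* and *Dbf4* met this definition, with ratios of 0.945, 0.772 and 1.04, whereas *Mcm3* at 0.421 and *Gins1* at 0.454 did not. The share was 49.0% where all 3 maps were E, 8.58% where all 3 were L, and 38.8% over all autosomal genes. The order E, M, L held for the E and M classes on 19 of 19 autosomes and for the M and L classes on 18. Bins that were M in both B cell maps but E in MEFs were closer to the E class, with 44.5%, and exceeded the regions M in all maps on 18 of 19 autosomes. Where MEFs were L the share was 14.5%.

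The letters of 3 short promoter motifs were counted in the same windows on both strands. GGGCGG, the GC box, was present in 31.7% of promoters in M regions, in 49.9% in the E class and in 10.2% in the L class, against 39.8% of all promoters. TATAAA, the TATA box letters, ran the other way, with 13.2% in M regions, 7.67% in the E class, 31.8% in the L class and 12.4% of all. CCAAT was found at similar shares of 37.5% in M regions, 33.8% in the E class, 35.8% in the L class and 34.7% of all. The median GC content of the windows was 50.8% in M regions, 58% in the E class, 39.2% in the L class and 54.4% over all. The part of this base composition in the motif shares was not tested. No motif of the 3 contains another, although neighbouring matches can share letters, and a match describes the sequence without showing a bound site. Of the windows printed above, *Gins1* and *Olfr19* held TATAAA, *Mcm3* and *Dbf4* held GGGCGG, and *Mcm4*, *Prkdc*, *Olfr19* and *Mcm3* held CCAAT.

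The state names rest on properties of the maps. In each map E and L touched in 0 places, which marks M as the state between them, and E was told from L by its gene density. GC content served as a further check of the names. It fell from 45.8% to 42.9% and 39.5% in E, M and L bins of CH12 cells. The fall was from 45.3% to 42.4% and 39.0% in primary B cells, and from 45.3% to 41.6% and 38.4% in MEFs. The maps have 1 merged profile per cell type, so no value here has a replicate error. Wilson intervals cover counting only, and neighbouring bins are not independent because the RT values were smoothed over 300 kb. Sequencing depth is unknown from state calls, and no RT value, origin mapping or expression was used. The RT values at which the states were cut are unknown too, so M need not cover the same range of RT in each map. No protein or transcript marker can be checked in these maps, so the cell types stand as labelled.

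M covered different shares of the maps and the overlap was bounded by CH12 cells, which had the least of it. M took 25.6% of autosomal bins in CH12 cells, 31.8% in primary B cells and 37.1% in MEFs, and the bins M in all maps were 40.8%, 32.8% and 28.1% of these. Where both B cell maps were M (20507 bins), MEFs were M in 60.9%, E in 32.4% and L in 6.63%. Where CH12 cells and MEFs were M (16817 bins), primary B cells were M in 74.3%, E in 19.5% and L in 6.14%. Where primary B cells and MEFs were M (23216 bins), CH12 cells were M in only 53.8%, and almost all of the remainder was L, at 42.0% against 4.19% E. Regions M in 2 maps therefore left the class toward L in CH12 cells, and mostly toward E in the other two. The whole maps differed in these states too. Over all autosomal bins, CH12 cells were E in 24.4% and L in 50.0%. The shares were 29.9% and 38.3% in primary B cells, and 33.8% and 29.1% in MEFs.

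Shares differed among autosomes. They ran from 7.29% on chromosome 3 to 16.7% on chromosome 18, with a median of 10.1% and a mean of 10.6 ± 2.38% (SD, n = 19). Chromosomes 13 (14.9%) and 12 (14.1%) followed chromosome 18, and chromosome 11 was next to the lowest with 7.98%. Along the chromosome the share was lowest, at 7.83%, in the fifth of 10 equal parts and highest, at 13.3%, in the ninth. Toward the proximal end, the first Mb beyond the unsequenced 3 Mb was M in all maps at 21.4% of bins (203 of 948, on 14 autosomes), and the last Mb at the distal end at 15.2% (144 of 949, also on 14). Bins close to gaps in the assembly were M more often. The share was 26.6% within 40 kb of a wholly unknown bin, 23.3% within 100 kb and 18.5% within 300 kb, and the last of these zones held 5.16% of all M bins. Where wholly unknown bins had a state it was mostly M, namely 3521 of 3785 in CH12 cells, 3317 of 3785 in MEFs and 750 in primary B cells, where 59 were E, 106 were L and the others had no state, and 583 were M in all maps. The part of such calls in the shares near gaps was not tested.

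**Figure D1:**
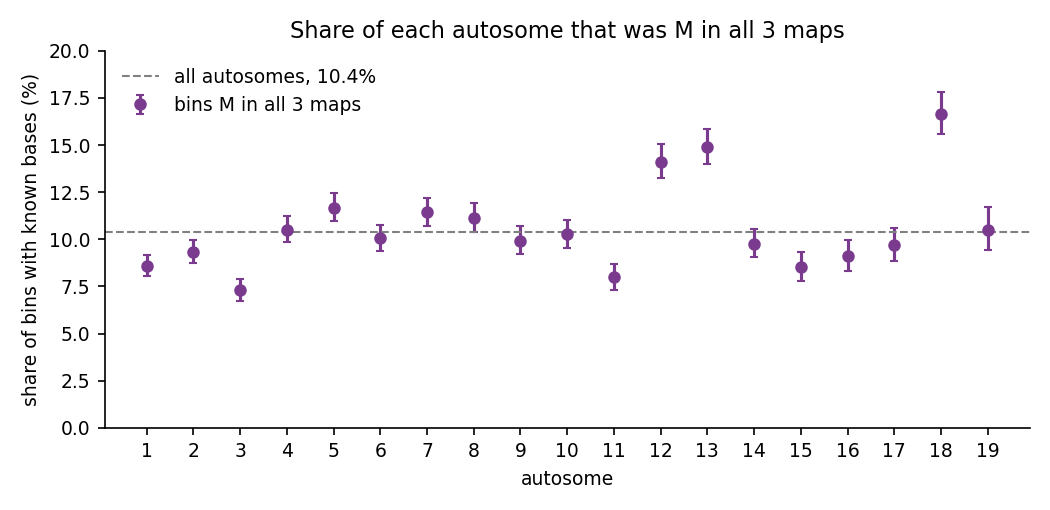
Share of bins with known bases that were M in all 3 maps (percent, vertical axis) on each of the 19 autosomes, with Wilson 95% intervals. The shares lie between 7.29% on chromosome 3 and 16.7% on chromosome 18, around the 10.4% of all autosomes.

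Runs were short. Their median length was 200 kb, with quartiles at 120 and 320 kb and a range from 20 to 1500 kb. Of the 1005 runs, 723 (71.9%) measured less than 300 kb, the span of the smoothing, and 46 were a single bin, while the 282 runs of 300 kb or more held 57.5% of the bins. By comparison, the 458 runs that were E in all maps had a median of 640 kb, and the 491 runs that were L in all had a median of 720 kb, with 18.8% and 18.1% below 300 kb. The classes that differ in 1 map were as short as the M runs or shorter, at 160 kb for M in both B cell maps and E in MEFs, 140 kb for M in both and L in MEFs, 160 kb for L in CH12 cells only and 100 kb for E in primary B cells only. Only 7 M runs reached 1 Mb.

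**Figure D2:**
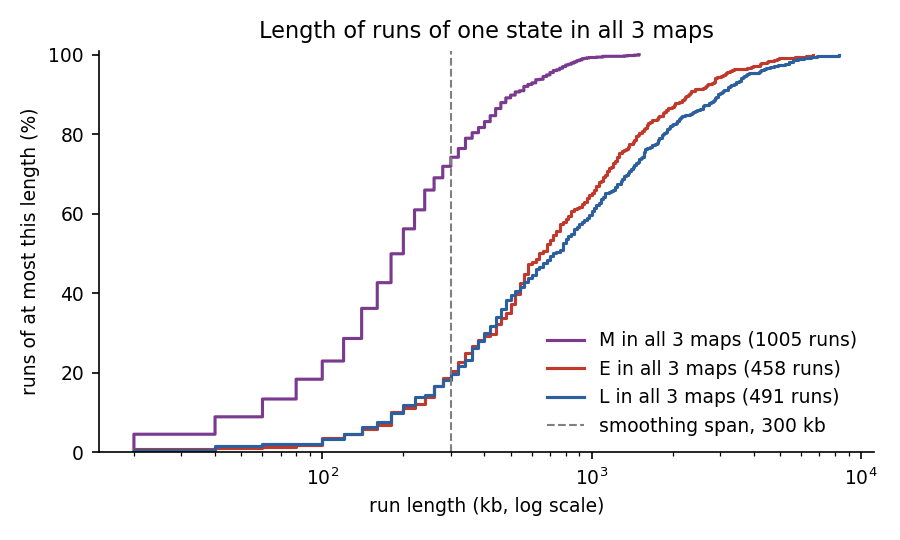
Cumulative share of runs (percent) by run length in kb on a log axis, for runs that were M, E or L in all 3 maps. The M curve lies to the left, with a median of 200 kb against 640 kb for E and 720 kb for L.

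The longest run, at chr18:68560001-70060000, spanned 1500 kb with a GC content of 41.8%. It held 3 protein-coding gene starts, among them *Mc2r*, the receptor for adrenocorticotropic hormone, and *Tcf4*, a basic helix-loop-helix transcription factor of lymphocytes and neurons. The M domain around it measured 1880 kb in CH12 cells, 2020 kb in primary B cells and 2220 kb in MEFs, and lay between E and L in CH12 cells but between 2 E domains in the others. After the 4 longest runs came a pair of equal length. The first of this pair, at chr13:36180001-37280000 (1100 kb, 42.1% GC), lay between E domains in all maps and contained *Fars2*, a mitochondrial phenylalanyl-tRNA synthetase, *F13a1*, the A subunit of coagulation factor XIII, and *Nrn1*, a neurite outgrowth factor. The second, also on chromosome 18, held *Zfp407*, a zinc finger gene.

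The second longest run, at chr16:15340001-16780000, spanned 1440 kb at 40.2% GC and held 12 gene starts. Besides *Mcm4*, *Prkdc* and *Olfr19* these included *Dnm1l*, the dynamin-related protein that divides mitochondria, *Pkp2*, a desmosome plaque protein, *Fgd4*, an exchange factor for CDC42, *Ube2v2*, a ubiquitin-conjugating enzyme variant, *Mzt2*, a component of gamma-tubulin complexes, and *Yars2*, a mitochondrial tyrosyl-tRNA synthetase. Its M domains of 1460 kb in CH12 cells and 1540 kb in primary B cells lay between E and L, and that of 2280 kb in MEFs lay between E domains. The third, at chr6:32540001-33900000 (1360 kb, 40.8% GC), had the same arrangement of neighbours and held *Chchd3*, which shapes mitochondrial cristae, with the start of *Exoc4*, an exocyst subunit.

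The fourth longest run, at chr2:150280001-151600000, spanned 1320 kb at 43.7% GC and lay between E and L in all 3 maps. In MEFs the M domain had the very extent of the run, 1320 kb, and it measured 1620 kb in CH12 cells and 2140 kb in primary B cells. Its 21 gene starts included *Gins1*, *Rad21l*, a meiotic cohesin subunit, *Psmf1*, a proteasome inhibitor, *Ninl*, a centrosomal ninein-like protein, *Fkbp1a*, the protein that binds rapamycin, *Acss1*, a mitochondrial acetyl-CoA synthetase, *Pygb*, the brain glycogen phosphorylase, *Snph*, which anchors mitochondria in axons, and the hydrolases *Abhd12* and *Entpd6*. The longest run between L domains in all maps, at chr1:20680001-21500000, spanned 820 kb at 43.2% GC. In CH12 cells the M domain again had the extent of the run, 820 kb, and it reached 1700 kb in primary B cells and 1660 kb in MEFs. It held *Mcm3* beside the interleukin genes *Il17a* and *Il17f*, the glutathione transferase *Gsta3*, *Paqr8*, a membrane progesterone receptor, *Tram2*, a translocon component, *Tmem14a*, a small membrane protein, and *Khdc1a* and *Khdc1b*, genes of oocytes and early embryos.

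Runs differed widely in gene content. The 3 runs with the most gene starts were picked after the values had been seen. The richest, at chr13:21420001-21940000, held 37 starts in 520 kb, including 18 replication-dependent histone genes and 9 olfactory receptor genes. The next, at chr11:58220001-58660000, held 26 starts in 440 kb, 20 of them olfactory receptor genes. The third, at chr7:50860001-51360000, held 24 starts in 500 kb, 20 of them kallikrein genes, which encode secreted serine proteases. At the other extreme, 394 runs had 0 protein-coding gene starts, and 221 (22%) overlapped no protein-coding gene at all. Among the 820 runs of at least 100 kb, GC content ranged from 36.2% at chr1:146300001-146440000 to 51.7% at chr4:139760001-139940000, with a median of 42.0%. The range of single runs thus reached below the 38.2% mean of the L class and above the 46.3% mean of the E class.

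In sequence composition, the M regions lay between the E and L classes. GC content averaged over the bins of an autosome was 42.5 ± 0.659% (SD, n = 19 autosomes), compared with 46.1 ± 0.964% for E in all and 38.3 ± 0.513% for L in all. E exceeded M by 3.63 ± 0.795 percentage points and M exceeded L by 4.22 ± 0.689, each on 19 of 19 autosomes. The class also stood between its neighbours that differ in MEFs. Bins E in MEFs were 1.63 ± 0.720 points higher on 19 of 19 autosomes, and bins L in MEFs were 2.81 ± 0.998 points lower on 18 of the 18 autosomes that had any. Bins L in CH12 cells only were 1.05 ± 0.624 points lower on 19 of 19. In contrast, bins E in primary B cells only had 42.5 ± 0.742% and M exceeded them on 9 of 19 autosomes, which is no order. The ratio of observed to expected CpG was 0.226, 0.191 and 0.147 in the E, M and L classes.

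Gene content gave the same order with a wider gap to E. E was told from L by gene density, so the order of E over L was set by the naming. The place of M between them was not. Protein-coding gene starts numbered 8.89 per Mb in M regions, 21.0 per Mb in the E class and 2.79 per Mb in the L class, and both orders held on 19 of 19 autosomes. Genes covered 42.5%, 60.01% and 20.2% of the bases of the M, E and L classes, and exons 2.93%, 7.62% and 0.607%. Over autosomes the density in M regions was 8.86 ± 2.39 per Mb (SD, n = 19), from 4.91 to 14.6. Gene density did not set M regions apart from bins that were M in both B cell maps only. It was 9.60 per Mb where MEFs were E, higher than in M regions on 13 of 19 autosomes, and 8.13 per Mb where MEFs were L, lower on 11 of 18. It was 5.89 per Mb where only CH12 cells were L, lower on 18 of 19, and 10.5 per Mb where only primary B cells were E, a class that M regions exceeded on 4 of 19 autosomes. The median length of genes that start in M regions was 15.6 kb, near the 15.2 kb of the E class and far above the 2.66 kb of the L class.

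**Figure D3:**
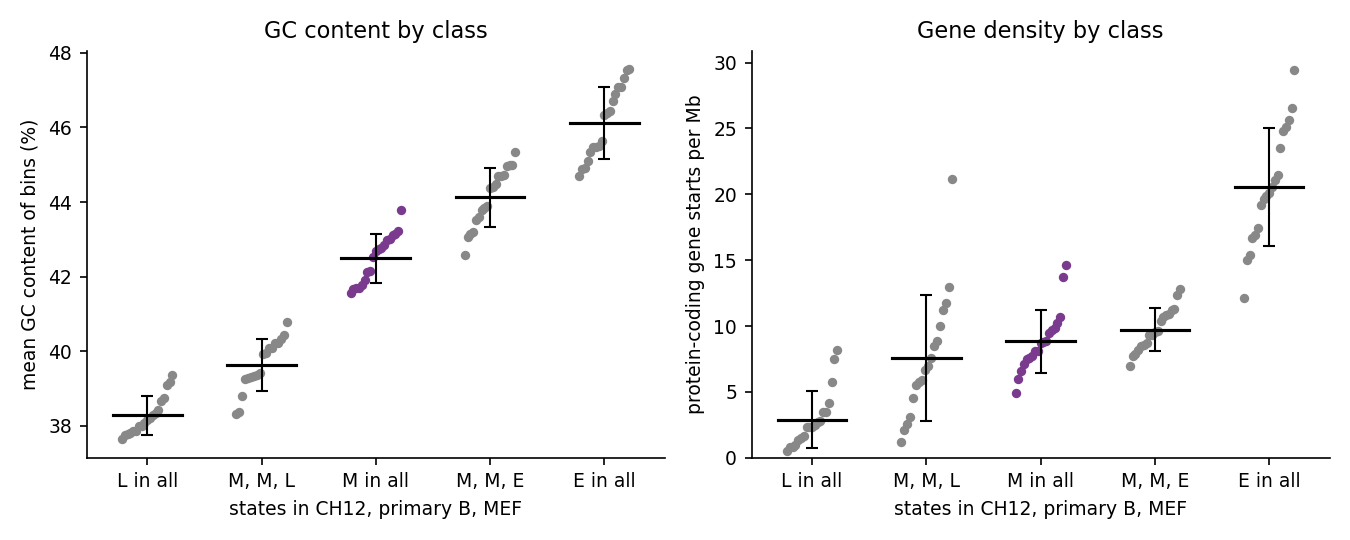
Mean GC content (percent) and density of protein-coding gene starts (per Mb) on each autosome for classes of bins named by their states in CH12 cells, primary B cells and MEFs. Points are autosomes, horizontal lines the means and bars the SD, the GC axis does not start at 0, and the M regions lie between E in all and L in all in both measures on 19 of 19 autosomes.

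The *Mcm4* and *Prkdc* pair is 1 of 80 pairs of protein-coding genes with both starts in M regions that face away from each other at most 1 kb apart. Of the 2222 starts in M regions, 158 (7.11%, interval 6.11 to 8.25) belonged to such a pair, compared with 9.83% in the E class, 1.33% in the L class and 7.29% of all autosomal starts. Other pairs of named genes were *Orc3* with *Rars2*, a mitochondrial arginyl-tRNA synthetase (13 bases apart), *Dbf4* with *Slc25a40*, a mitochondrial carrier (134 bases), *Atm*, the kinase activated by DNA double-strand breaks, with *Npat*, a coactivator of histone genes (307 bases), and *Gins1* with *Abhd12* (659 bases).

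The states next to the M domains that hold the runs showed 3 settings, namely a transition from E to L, an island between L domains and a dip between E domains. In CH12 cells 553 runs (55.0%) lay in E to L transitions, 325 (32.3%) between L domains and 103 (10.2%) between E domains. In primary B cells these were 560 (55.7%), 170 (16.9%) and 241 (24.0%), and in MEFs 494 (49.2%), 122 (12.1%) and 362 (36.0%). The remaining 24, 34 and 27 ended at a gap or chromosome end. Transitions made up 660 of all 1229 M domains in CH12 cells, 680 of 1251 in primary B cells and 493 of 1036 in MEFs. L domains flanked 348, 255 and 207 of all M domains on both sides, and E domains 199, 277 and 309. Outside transitions, the runs were thus mostly flanked by L on both sides in CH12 cells and by E in MEFs. The M domains of each map as a whole leaned the same way. E made up 38.5%, 53.3% and 62.3% of the sides of runs in CH12 cells, primary B cells and MEFs. Over all autosomes, M met E at 1069, 1257 and 1130 borders and L at 1380, 1206 and 921. Of the 963 runs with a known state on both sides in all maps, CH12 and primary B cells had the same setting for 621 (64.5%), CH12 cells and MEFs for 481 (49.9%), and primary B cells and MEFs for 621 (64.5%).

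The setting was the same in all 3 maps for 407 runs (40.5%). Of these, 265 were transitions (254 the same way round in all maps and 11 not), 75 were dips between E domains and 67 were islands between L domains. The most frequent mixed patterns were a transition in both B cell maps with a dip in MEFs (107 runs), an island in CH12 cells with a transition in the other two (100 runs), and a transition in CH12 cells with a dip in the other two (84 runs).

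Islands and dips differed from their surroundings in opposite directions. The 67 islands had a median length of 320 kb (20 to 820 kb), and their mean GC content was 41.3% against 39.7% in the 200 kb on either side of the run, a difference of 1.56 ± 1.65 points (SD over runs), with 59 of 67 higher inside. They held 11.2 gene starts per Mb against 6.25 outside, and genes covered 43.9% of bases against 29.8%. The 75 dips had a median of 300 kb (40 to 1100 kb) and 43.8% GC against 45.4% outside, a difference of -1.67 ± 2.38 points with 18 of 75 higher inside. They held 9.70 gene starts per Mb against 17.8, and genes covered 47.0% against 53.7%. The 249 transitions had 42.4% GC inside against 42.5% over both sides together, with 117 of 249 higher inside. They held 8.20 gene starts per Mb against 11.1, and genes covered 36.0% against 41.4%.

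Each run ended where the first map left M, and this was most often CH12 cells. The 1005 runs had 2010 ends, of which 72 met a gap, 11 a chromosome end and 1927 a bin with known bases. At 1840 of these (95.5%) a single map left M, at 85 (4.41%) a pair of maps left together, and at 2 all 3 left at once. CH12 cells left at 917 ends (47.6%), primary B cells at 559 (29.0%) and MEFs at 540 (28%), where an end that several maps left counts for each. The direction of leaving was again split by map. CH12 cells went to L at 82.7% of the ends where they left, whereas primary B cells went to E at 80.0% and MEFs to E at 80.6%. In the whole maps, M met L at 1380 borders and E at 1069 in CH12 cells. These borders numbered 1206 and 1257 in primary B cells, and 921 and 1130 in MEFs.

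Beyond the ends M faded at different rates. In the first bin outside, CH12 cells were M at 52.4% of ends, primary B cells at 71% and MEFs at 72.0%, and L in CH12 cells already stood at 39.3%. At 200 kb the M shares were 29.5%, 39.2% and 50.9%. At 400 kb they were 28.2%, 32.8% and 44.1%, and at 1000 kb 29.7%, 35.3% and 39.7%, a little above the 25.6%, 31.8% and 37.1% of each whole map.

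**Figure D4:**
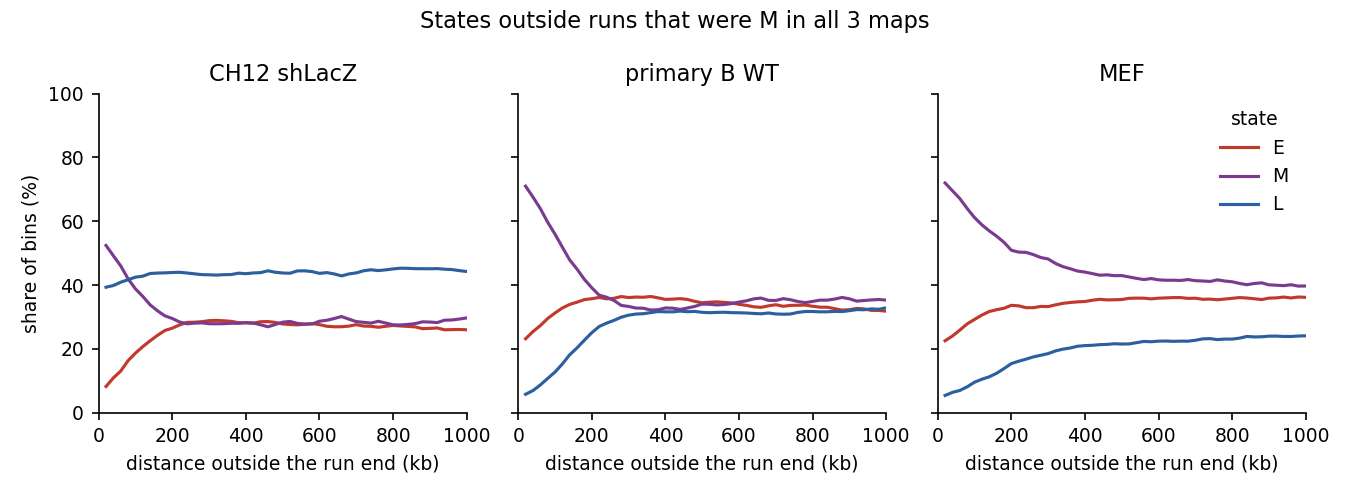
Share of run ends at which each map was E, M or L (percent) by distance from the end in kb. In the first bin CH12 cells were M at 52.4% of ends and L at 39.3%, while primary B cells and MEFs were M at 71% and 72.0%.

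Edges could be compared at 249 transitions that ran the same way in all maps, after runs within the same 3 domains had been counted once. The M zone between E and L had a median width of 300 kb in CH12 cells (quartiles 220 and 520), 380 kb in primary B cells (320 and 580) and 560 kb in MEFs (380 and 1040), and the 3 zones shared 180 kb (120 and 240). Most of the difference lay at the edge with L. Relative to CH12 cells, this edge lay farther toward the L side by a median of 120 kb in primary B cells (82.7% of transitions) and of 220 kb in MEFs (83.9%). The edge with E differed less, with medians of 40 kb toward L for both (20 kb, or 1 bin, for MEFs when only shared stretches of at least 100 kb were kept), and between primary B cells and MEFs it differed by a median of -20 kb. E edges lay within 100 kb of each other at 60.2% of transitions for CH12 and primary B cells, at 46.6% for CH12 cells and MEFs and at 53.8% for primary B cells and MEFs. For L edges these shares were 39.0%, 26.9% and 37.3%. CH12 cells alone set the end of the shared zone on the L side at 185 transitions (74.3%), whereas on the E side primary B cells alone did so at 103 (41.4%), MEFs at 95 (38.2%) and CH12 cells at 33 (13.3%). These widths and offsets compare state calls. A shift in timing and a different cut between states cannot be told apart from them, and the part of each was not tested.

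**Figure D5:**
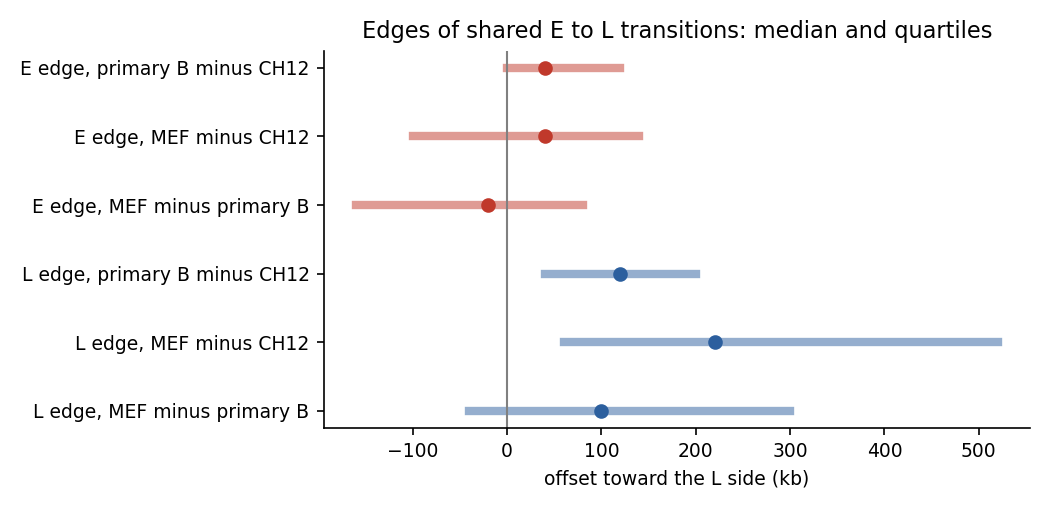
Offsets in kb of the E edge and of the L edge of the M zone between pairs of maps at 249 transitions, positive toward the L side, with medians and quartiles. The L edge lies a median of 120 kb (primary B cells) and 220 kb (MEFs) farther into the L side than in CH12 cells, against 40 kb for the E edge.

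GC content followed the transitions. On the E side it was 42.9% in the first bin outside the run, 44.6% at 200 kb and 44.8% at 500 kb, and on the L side 41.9%, 41.1% and 40.4%. Within the runs the slope was slight. In the 243 runs of more than 1 bin, the inner part toward E had 42.6% GC and the inner part toward L 42.2%, a difference of 0.368 ± 1.86 points (SD over runs), and the E part was higher in 147 of 243 runs (60.5%, interval 54.2 to 66.4). Genes covered 37.7% of the E part and 29.0% of the L part, a difference of 8.70 ± 32.8 points (SD over runs). The median difference was 0, and the E part was higher in 94 of 243 runs. Gene starts were nearly equal at 8.15 and 8.39 per Mb. Transcription had no preferred direction across these zones, with 208 of 421 genes (49.4%, interval 44.7 to 54.2) read from the E side toward the L side.

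The M regions contained 2222 of 21418 autosomal protein-coding gene starts. This is 10.4%, equal to their 10.4% of the bins, and 1958 of these genes (88.1%) lay wholly inside a run. Gene lists were read against this share as descriptions. Of all 21418 starts, 9804 were E in all maps and 1655 L in all, the background for such counts below. Of 28 genes for origin licensing and firing, 7 (25.0%, interval 12.7 to 43.4) started in M regions, 12 were E in all maps and 0 were L in all. The 7 lay in 7 different runs. They were *Orc3*, a subunit of the origin recognition complex, the MCM2-7 subunits *Mcm3*, *Mcm4* and *Mcm5*, *Mcm9*, a helicase of recombinational repair, *Gins1* and *Dbf4*. *Mcm3*, *Mcm4*, *Mcm5*, *Mcm9* and *Gins1* lay deep within their runs, with 130, 297, 287, 190 and 451 kb to the nearest run end, whereas *Orc3* was 17.8 kb from an end. The runs of *Mcm3* (820 kb) and *Mcm5* (620 kb, chr8:77300001-77920000, 44.1% GC) were islands between L domains in all 3 maps. That of *Mcm9* (680 kb) was an island in CH12 cells and MEFs and a transition in primary B cells, as was that of *Dbf4* (120 kb), and that of *Orc3* (140 kb) was an island in CH12 cells only.

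Other members of the origin list were placed elsewhere. *Mcm2* and *Mcm10*, which encode a further helicase subunit and a helicase activator, were E in all maps. *Mcm6*, the subunit depleted in other samples of the study, was E in both B cell maps and M in MEFs, and *Mcm7* and *Mcm8* were M, E and M in CH12 cells, primary B cells and MEFs. *Rif1* itself was M in both B cell maps and E in MEFs, and so lay outside the M regions. It was looked up after the values had been seen, as the gene that the study turns on.

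Lists of other steps of genome maintenance lay near the background. Of 35 genes for replication forks and checkpoints, 4 (11.4%) started in M regions and 23 were E in all maps. These were *Rfc3*, a clamp loader subunit, *Lig1*, the ligase that seals Okazaki fragments, *Chek1*, the checkpoint kinase, and *Top2b*, a type II topoisomerase. *Top2b* lay in a 460 kb island between L domains in all maps, 182 kb from its nearest end, and *Rfc3* in a 240 kb run that reached a chromosome end. Of 34 genes for double-strand break repair, 5 (14.7%) did, namely *Atm*, *Prkdc*, *Nbn*, of the MRE11 complex, *Rbbp8*, which starts end resection, and *Wrn*, a RecQ helicase. *Wrn* lay in a 100 kb transition in all maps, and *Atm* in a 300 kb run with L on both sides in CH12 cells and E on both sides in MEFs.

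None of 38 genes of B cell identity and antigen receptor signalling started in an M region (upper limit of the interval 9.18%). They were mostly E, 23 of them in all 3 maps, and 7 were M in CH12 cells, 0 in primary B cells and 10 in MEFs. Of all 21418 starts, 9804 were E in all maps. M starts numbered 5771 in CH12 cells, 6044 in primary B cells and 5980 in MEFs. The count depends on how genes were assigned to lists. *Tcf4*, described above as a factor of lymphocytes, was counted in another list and did start in an M region. Of 32 proteasome genes 0 started in M regions (upper limit 10.7%), with 24 E in all maps. Of 30 genes of T and NK cells 4 (13.3%) did, the transcription factor *Gata3* (300 kb run), the interleukin 7 receptor *Il7r* (600 kb), the NK receptor *Ncr1* and the protease *Gzmb*, whose 460 kb run was a dip between E domains in all maps. Of 30 fibroblast matrix genes 2 (6.67%) did, *Col12a1*, a collagen chain, and *Vcan*, a matrix proteoglycan. Of 33 mesenchymal regulators 1 (3.03%) did, *Wt1*, in a 240 kb transition in all maps. Of 35 genes of glycolysis and the citrate cycle 4 (11.4%) did, *Pfkp*, *Aco1*, *Idh1* and *Sdha*.

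Regulators of tissues that these cells do not form were placed in M regions at 7 of 50 (14.0%). They were *Pax6*, *Neurog2*, *Nkx2-2*, *Emx2* and *Six3*, transcription factors of the nervous system and eye, and *Foxa1* and *Gata6*, of endoderm. *Six3* lay in an 800 kb dip between E domains in all maps, *Foxa1* in a 180 kb island between L domains in all, and *Neurog2* in a run of 740 kb. Of these 50 genes 18 were E in all maps and 4 L in all. Of 50 long neuronal genes and genes at common fragile sites 6 (12%) started in M regions, while 0 were E in all and 23 were L in all. They were *Dlg2*, a postsynaptic scaffold, *Wwox*, a gene at a fragile site, *Ptprn2*, a protein of secretory granules, *Exoc4*, *Fto*, an RNA demethylase, and *Tcf4*. The start of *Dlg2* lay in a 40 kb run within a transition in all maps.

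Shares by gene length showed no steady trend. The M regions held 10.9% of genes shorter than 10 kb (interval 10.3 to 11.6), 9.58% of those from 10 to 100 kb (9.03 to 10.1), 12.4% from 100 to 300 kb (11 to 14), 11.7% from 300 to 500 kb and 10.1% (19 of 188) of those longer than 500 kb. The longest genes wholly inside 1 run were *Atp8a2*, a phospholipid flippase of neurons (550 kb), *Rgs6*, a regulator of G protein signalling (542 kb), *Zfp407* (462 kb), *Fars2* (420 kb), *Fggy*, a carbohydrate kinase (369 kb), 1700106N22Rik (368 kb), *Setbp1*, which encodes a binding partner of SET (359 kb), *Tcf4* (344 kb), *Dnahc11*, a dynein heavy chain of cilia, and *Prdm16*, a transcription factor of brown fat (both 321 kb).

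Groups of genes whose symbols begin with the same letters differed more than the lists. Of 54 such groups with at least 30 genes, some of them only clone prefixes, the histone genes (Hist) had the highest share, 40 of 67 (59.7%, interval 47.7 to 70.6), with 17.9% E in all and 0 L in all. They lay in 4 runs on chromosome 13, so that neighbours in 1 cluster make up the count. Keratin-associated protein genes (Krtap) followed with 10 of 46 (21.7%, 12.3 to 35.6) in 2 runs, and zinc finger genes (Zfp) with 72 of 362 (19.9%, 16.1 to 24.3). The Zfp genes were spread over 33 runs on 14 chromosomes, and 42.5% of the Zfp genes were E in all maps. For comparison, 9804 of all 21418 protein-coding starts were E in all maps and 1655 were L in all. Looked up after the shares were known, vomeronasal receptors (Vmn) had 59 of 327 (18%) and olfactory receptors (Olfr) 172 of 1106 (15.6%), with 48.1% of the Olfr genes L in all. At the low end stood F-box genes (Fbxo) with 0 of 37 (upper limit 9.41%) and symbols with the prefix of the large ribosomal subunit (Rpl) with 2 of 84 (2.38%). Serine proteases (Prss) and taste receptors (Tas) had 1 of 38 each (2.63%). Symbols with the prefix of the small ribosomal subunit (Rps), looked up later, had 9 of 54 (16.7%, 9.02 to 28.7), so the low share of Rpl was not found for Rps. The prefix alone placed a gene in a group, so a group can hold genes of other kinds.

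Counted over all gene types, 3594 of 34653 starts (10.4%) lay in M regions. Pseudogenes stood above this at 13.0% (527 of 4055) and microRNA genes below it at 8.17% (120 of 1468). Long intergenic noncoding RNAs had 9.66%, small nucleolar RNAs 10.6%, small nuclear RNAs 9.17%, ribosomal RNA genes 9.77% and immunoglobulin variable segments 7.61%. Of the M domains of each map, 865 of 1229 (70.4%) in CH12 cells, 833 of 1251 in primary B cells and 737 of 1036 in MEFs contained a shared M bin, and 149, 48 and 50 consisted of such bins alone.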

How the data were processed

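The deposited maps list the start, end and state of each domain. The state numbers 0, 1 and 2 are the only values. They are labels whose order differs between maps, and no ratio or count comes with them. According to the methods, the authors trimmed reads of the early and late fractions with Trim Galore 0.6.5, aligned them to mm9 with BWA 0.7.17, kept unique alignments with SAMtools 1.9, merged replicates and removed duplicates. They then computed log2 ratios of early to late reads in 20 kb windows, smoothed them by loess over 300 kb and segmented them with a hidden Markov model into 3 states. The numbers are not explained in the files. The state between the pair that touched in 0 places was named M, and of that pair the one denser in genes was named E, which gave M number 1 in both B cell maps and 2 in the MEF map. Merging removes the replicate spread and smoothing blurs edges by up to the span. Bins of repeated sequence can rest on few unique reads.

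The last domain ended at the NCBIM37 (mm9) length on all 20 chromosomes in each map. Of 123624 autosomal bins 3785 were wholly unknown bases, 583 of them M in all maps, and were dropped, and 97 kept M bins held some. Genes came from GENCODE M1 and were placed by their start, and GC content and promoters were read from NCBIM37. Flanks were the states next to the M domain that holds a run. Genes named are those of the 5 longest runs and of the longest run of each shared setting, the 10 longest genes inside a run, list members in M bins, the 3 symbol groups with the highest and the 3 with the lowest share (with ties). Others are said to be chosen later where they are named, and some genes that the rule would name are not reported here. The members and lists were chosen with earlier results of these data known. Since there is 1 map per cell type, no test was made, and Wilson 95% intervals and SDs over 19 autosomes were given. The other groups of the series were not used here. Run finding was tested on simulated maps, with 20 of 20 recovered. The tools were Python 3.11.15, scipy 1.17.1, pandas 2.3.3, numpy 2.4.6 and, for plots, matplotlib 3.10.9.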

Additional observations from a re-analysis of the deposited data

Results flagged for a closer look

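Chromosome X lay outside the rule and was not used in any comparison above. Of its 8138 bins with known bases, 994 (12.2%, Wilson 95% interval 11.5 to 12.9) were M in all 3 maps, within the range of the autosomes. In MEFs 0% of X bins were E, 37.3% were M and 62.7% were L, while CH12 cells had 8.48% E and 68.5% L and primary B cells 12.3% E and 51.8% L. It is listed because the value comes from data outside the regions described, and the difference from the autosomes was not tested.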

How the results depend on the processing

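No paired analysis was possible because the maps hold merged replicates and carry no replicate number. Of 84 alternative values for 28 results, 15 moved and 0 reversed. The other 69 stayed within set limits. These were a factor of 1.5 for counts, the Wilson interval for shares, and 1 bin for lengths and offsets. For gene density and GC content the limit was the SD over autosomes. With chromosome X added, the share of gene starts in M regions was 10.8%. Without bins within 100 kb of any domain edge, 4862 bins (6.85% of those left) in 457 runs remained, with a median run of 140 kb and 7.17% of gene starts. Without bins within 300 kb of a wholly unknown bin, a setting added after the data had been seen, the share was 10.2%, that of the first of 10 equal parts of the chromosome fell to 10.3% from 11.9%, and that of the first Mb beyond the proximal 3 Mb fell to 15% from 21.4%. With shared stretches of at least 100 kb only, the offset of the E edge between MEFs and CH12 cells was 20 kb in place of 40 kb, a move of 1 bin. With all gene types, starts numbered 14.4 per Mb. With runs of at least 300 kb only, 282 runs with a median of 440 kb were left, and transitions made up 39.4% in CH12 cells, 39.4% in primary B cells and 41.1% in MEFs. These settings keep fewer bins or runs, or count more genes, by construction. Where the proximal 3 Mb were left out, no value could change, because these unsequenced bins had already been dropped. The values of this setting are among the 69. Depth behind the state calls is unknown.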
